A study of Homo sapiens with 6 samples.

Results

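The enzymes described here make purine nucleotides. They were taken from the read count table by gene symbol, and all 10 listed members were found among 30493 genes: PPAT, GART, PFAS, PAICS, ADSL and ATIC of the route to inosine monophosphate (IMP), IMPDH1, IMPDH2 and GMPS of the branch to guanosine monophosphate (GMP), and HPRT1 of the salvage route. The study sequenced poly(A) RNA of A549, an established human lung adenocarcinoma cell line, to ask what changes when STAU1 is depleted. Its product, Staufen1, binds double-stranded RNA and is known for roles in the transport and decay of mRNA. There were 3 libraries labelled STAU1 knockdown, whose names carry the prefix si, and 3 libraries labelled as control plasmid. The labels name no other agent, time or dose, and leave unsaid whether replicates were grown separately. The p-values therefore measure library-to-library spread alone, and that spread may be technical.

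Cells build the purine ring stepwise on a ribose phosphate, drawing on glutamine, glycine, aspartate and folate-bound formyl groups, until IMP is formed. IMP is then turned into AMP or GMP, while the salvage enzymes rebuild nucleotides from free bases at a lower energy cost. Dividing cells, tumour lines among them, are known to run this synthesis at a high rate. In bulk RNA the amount of a transcript per cell and the mixture of cells cannot be told apart.

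In the GENCODE 29 annotation (GRCh38) the members lie apart from each other except for PPAT and PAICS. PPAT (ENSG00000128059.8) spans chr4:56393362-56435615 on the minus strand and PAICS (ENSG00000128050.9) chr4:56435741-56464579 on the plus strand. GART (ENSG00000159131.17) is at chr21:33503931-33543491 on the minus strand, PFAS (ENSG00000178921.14) at chr17:8247618-8270491 on the plus strand, and ADSL (ENSG00000239900.14) at chr22:40346500-40390463 on the plus strand. ATIC (ENSG00000138363.15) is at chr2:215311817-215349773 on the plus strand. IMPDH1 (ENSG00000106348.18) is at chr7:128392277-128410252 and IMPDH2 (ENSG00000178035.13) at chr3:49024325-49029408, both on the minus strand. GMPS (ENSG00000163655.16) is at chr3:155870536-155944026 and HPRT1 (ENSG00000165704.15) at chrX:134460153-134520513, both on the plus strand.

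PPAT, which opens the route, and PAICS, which acts later in it, lie head to head on chromosome 4 and point away from each other, so both genes read out from the same stretch of DNA. Of the RefSeq starts of PAICS the one at chr4:56435752 is used here, because its promoter window overlaps that of PPAT. The stretch between that start and the PPAT start is shown because it carries the start region of both genes. It holds 136 bases (GRCh38.p14, chr4:56435616-56435751, read on the minus strand, the direction of PPAT). The E-box CACGTG, the textbook binding sequence of MYC and related factors, was searched there and in the other promoter windows and is marked in capitals. It is not in this stretch and lies beyond it, 177 bases before the PPAT start and 40 bases past this PAICS start. The bases shown around it (chr4:56435780-56435809, minus strand) lie inside the PAICS gene in GENCODE. PAICS also has RefSeq starts at chr4:56410507 and chr4:56436260, and their windows hold no E-box. The third sequence surrounds the E-box 41 bases before the RefSeq start of ATIC (chr2:215312001-215312030, plus strand), a place inside the ATIC gene in GENCODE. ATIC has another E-box 29 bases past its RefSeq start.

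PPAT to PAICS: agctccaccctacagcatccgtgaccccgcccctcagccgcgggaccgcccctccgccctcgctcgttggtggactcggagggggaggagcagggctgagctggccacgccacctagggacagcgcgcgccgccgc

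PPAT E-box: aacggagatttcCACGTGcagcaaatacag

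ATIC E-box: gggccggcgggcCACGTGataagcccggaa

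The RefSeq windows, of 250 bases before and 50 after a start, were at hand for 8 of the members in 12 windows. The 6-letter E-box, which reads the same on both strands, was in 3 of these 12 windows (of PPAT, PAICS and ATIC) and in 7.26% of the 35116 windows of all genes. The PPAT and PAICS windows share 236 bases, and their match is one and the same E-box. A match of letters is a description and shows no binding.

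The libraries held 30354219 to 35431441 counts in STAU1 knockdown and 31458569 to 32832268 in control. STAU1 itself had 16.02, 15.7 and 14.6 CPM (TMM-scaled counts relative to library size, a scaling that sets the bulk of genes level between libraries) in the knockdown libraries, against 120.5, 124.5 and 117 CPM in control libraries. Mitochondrially encoded genes took 15.8% to 16.1% of the counts in knockdown libraries, against 17.3% to 17.9% in control libraries. Of 15 markers of A549 or lung epithelium 10 had a mean of at least 1 FPKM, with a summed level of 6912 to 7296 FPKM in knockdown and 7155 to 7247 FPKM in control. That sum was mostly AKR1B10 and ALDH1A1, and single markers moved apart. The keratin genes KRT7, KRT18 and KRT8 fell (log2 fold changes of -0.60, -0.45 and -0.39 in TMM-scaled counts), while the adhesion genes CDH1 and EPCAM rose (0.50 and 0.22). In CPM the groups did not overlap in any of these 5, while they did for the keratin gene KRT19 (-0.048). Over all tested genes knockdown libraries lay wholly below control for 25.5% and wholly above for 25.8%. The lung lineage gene NKX2-1 was near 0, at 0.02 to 0.03 FPKM in knockdown and 0.05 to 0.07 FPKM in control, while 2 surfactant genes had 0 counts in all knockdown libraries and some in control. SFTPA1 had 0 counts in each knockdown library, against 162, 141 and 212 in control libraries, and SFTPB had 0 counts in each knockdown library, against 103, 56 and 50 in control libraries. Of 12 markers of immune, endothelial, stromal and red cells 2 (CD14 and LUM) reached that level, and the 9 that were analysed summed to 11.8 to 13.01 FPKM in knockdown and 8.32 to 8.49 FPKM in control. PECAM1, VWF, DCN, COL3A1, HBA1 and HBB were below 0.2 FPKM in every library, CDH5 was at 0.22 to 0.26 FPKM in knockdown and 0.1 to 0.11 FPKM in control, and the other markers of this list were not analysed here. The part of these shifts in the results below was not tested.

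Transcripts of the purine synthesis enzymes were lower after STAU1 knockdown by modest amounts. Of the 10 members, all of which passed the filter on low counts, 9 fell, 0 rose and 1, IMPDH2, was not called, at a Benjamini-Hochberg adjusted p under 0.05 over 17089 genes (quasi-likelihood test of edgeR). Among all tested genes 44.2% were called, 22.0% lower and 22.2% higher. Among the called members IMPDH1 fell by 5.46% and PAICS, at the other end, fell by 20.7%. The members' median log2 fold change was -0.22, and the median over all tested genes was -0.00036. In all 10 members every knockdown library lay below every control library in CPM, which held for 25.5% of all tested genes, with 25.8% lying wholly above.

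**Figure D1:**
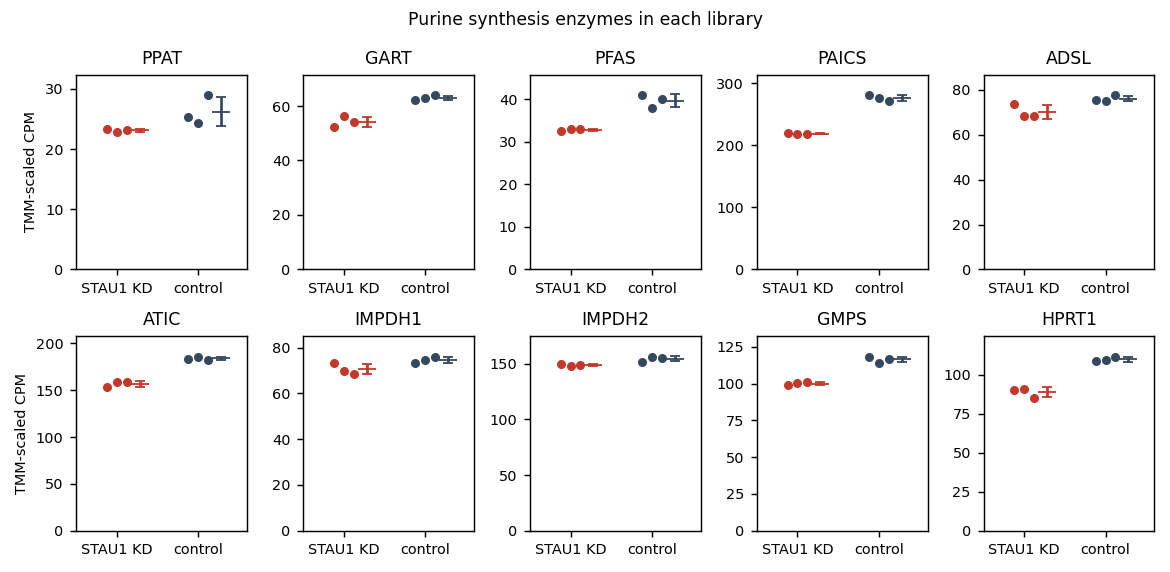
TMM-scaled CPM (y axis, from 0) of the 10 enzyme transcripts in the 3 STAU1 knockdown and 3 control libraries (x axis); points are libraries and the bar beside them is the mean ± SD. In every panel the 3 knockdown points lie below the 3 control points, with the gap widest for PAICS (220.2, 218 and 218 CPM against 280.1, 276 and 270.4 CPM).

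The size of these falls depended on how libraries were made comparable. With total-count scaling 6 members were called lower (14.1% of all tested genes were), and PPAT, ADSL and IMPDH1 were no longer called. On the authors' FPKM scale 5 were called lower in limma's test, where 9.08% of all tested genes were with log2(FPKM + 1) and 9.09% with log2(FPKM + 0.1). On log2(FPKM + 1) these were PAICS at -0.22, HPRT1 at -0.20, PFAS at -0.14, ATIC at -0.12 and GMPS at -0.099, with adjusted p between 0.000526 for PAICS and 0.0472 for GMPS. These scalings raised other genes too: of all calls 50.3% were higher with TMM, 69.5% with total counts, and 77.3% and 77.2% on log2(FPKM + 1) and log2(FPKM + 0.1). The members' median minus the median of all tested genes was -0.22 with TMM and with total counts, and -0.15 and -0.20 on the FPKM scales.

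Transcripts of the enzymes that open the route fell. PPAT, the amidotransferase that commits phosphoribosyl pyrophosphate (PRPP) to purine synthesis, had 23.4, 22.8 and 23.2 CPM in knockdown libraries, against 25.3, 24.4 and 28.9 CPM in control libraries. The knockdown libraries lay close together and one control library, replicate 3, stood above the other two. The log2 fold change was -0.18 (SE 0.054, adjusted p = 0.0052 from edgeR), and without control replicate 3 it was -0.10 and no longer called (adjusted p = 0.146). GART is a single protein with several activities, one of which adds a folate-bound formyl group. GART had 52.4, 56.2 and 54.02 CPM in knockdown libraries, against 62.3, 62.9 and 63.9 CPM in control libraries, a log2 fold change of -0.22 (SE 0.036, adjusted p = 1.57e-06 from edgeR). GART overlaps the opposite-strand gene SON by 874 bases, and SON, at 0.05 on the log2 scale, was not called. The GART call was lost on both FPKM scales (-0.093 with adjusted p = 0.0803, and -0.11 with adjusted p = 0.08, from limma).

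PFAS, which takes an amino group from glutamine, had 32.6, 33.0 and 32.9 CPM in knockdown libraries, against 40.9, 38.04 and 40.2 CPM in control libraries. The knockdown values differed by less than 1 CPM and none reached the control range. The log2 fold change was -0.27 (SE 0.043, adjusted p = 5.44e-07 from edgeR). PFAS shares 478 bases with CTC1 on the opposite strand, and CTC1 had a log2 fold change of 0.022 and was not called.

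PAICS, which carboxylates the ring intermediate and then attaches aspartate, showed the largest fall of the members in the TMM-scaled test. It had 220.2, 218 and 218 CPM in knockdown libraries, against 280.1, 276 and 270.4 CPM in control libraries. The group means were 218.6 ± 1.41 CPM in knockdown and 275.6 ± 4.89 CPM in control (SD, n = 3 each), a log2 fold change of -0.33 (SE 0.022, adjusted p = 1.94e-17 from edgeR). It was still -0.22 on both FPKM scales.

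ADSL, the lyase that acts both on the way to IMP and on the way to AMP, had 73.6, 68.3 and 68.3 CPM in knockdown libraries, against 75.7, 75.1 and 77.5 CPM in control libraries. Knockdown replicate 1 was close to the control range. Its log2 fold change was -0.12 (SE 0.033, adjusted p = 0.00265 from edgeR), a call that ended with total-count scaling (-0.043, adjusted p = 0.31) and on the FPKM scales (-0.0073 and -0.0086, adjusted p = 0.892 from limma). Another protein-coding gene annotated on the same strand covers 43935 bases of ADSL and had 439 to 492 counts in knockdown libraries and 409 to 484 in control libraries, so ADSL reads may be divided between them.

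ATIC closes the purine ring and yields IMP after a further formyl transfer. It had 153, 158.6 and 158.9 CPM in knockdown libraries, against 183.8, 185.8 and 182.6 CPM in control libraries. All knockdown values were lower, with a gap to the control range far wider than the spread within either group. The log2 fold change was -0.23 (SE 0.024, adjusted p = 2.76e-11 from edgeR).

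In the GMP branch, the transcripts of both IMP dehydrogenases moved little while that of the next enzyme fell. IMP dehydrogenase is the rate-limiting enzyme of guanine nucleotide synthesis and the target of mycophenolic acid. IMPDH1 had 73.1, 69.9 and 68.6 CPM in knockdown libraries, against 73.3, 74.4 and 76.01 CPM in control libraries, a log2 fold change of -0.081 (SE 0.033, 95% interval -0.15 to -0.015, adjusted p = 0.0413 from edgeR). Knockdown replicate 1 nearly met control replicate 1, and the call ended with DESeq2 (adjusted p = 0.11), with no filter on low counts (0.0892), with total-count scaling (0.938), and without knockdown replicate 2 (0.0905) or 3 (0.171) or control replicate 2 (0.0733) or 3 (0.155). On the FPKM scales its value turned to 0.028 and 0.029.

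IMPDH2 had 149.6, 147.8 and 149.2 CPM in knockdown libraries, against 151.9, 156.3 and 154.8 CPM in control libraries. The groups did not overlap, but the gap was small, and the log2 fold change of -0.052 (SE 0.024, 95% interval -0.10 to -0.0031) was not called (adjusted p = 0.0792 from edgeR). Its sign turned with total-count scaling (0.025) and on the FPKM scales (0.056 and 0.058). GMPS, which aminates xanthosine monophosphate to GMP, had 98.9, 100.1 and 101 CPM in knockdown libraries, against 118.2, 114.2 and 116.6 CPM in control libraries. It fell by 0.22 on the log2 scale (SE 0.027, adjusted p = 4.22e-09 from edgeR).

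HPRT1, the salvage enzyme that joins hypoxanthine or guanine to PRPP, fell almost as far as PAICS. It had 89.9, 91.03 and 84.9 CPM in knockdown libraries, against 108.6, 109.3 and 111.4 CPM in control libraries. The means were 88.6 ± 3.25 CPM in knockdown and 109.7 ± 1.46 CPM in control (SD, n = 3 each), with a log2 fold change of -0.31 (SE 0.029, adjusted p = 2.05e-12 from edgeR). HPRT1 is often used as a reference gene for normalizing PCR assays.

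**Figure D2:**
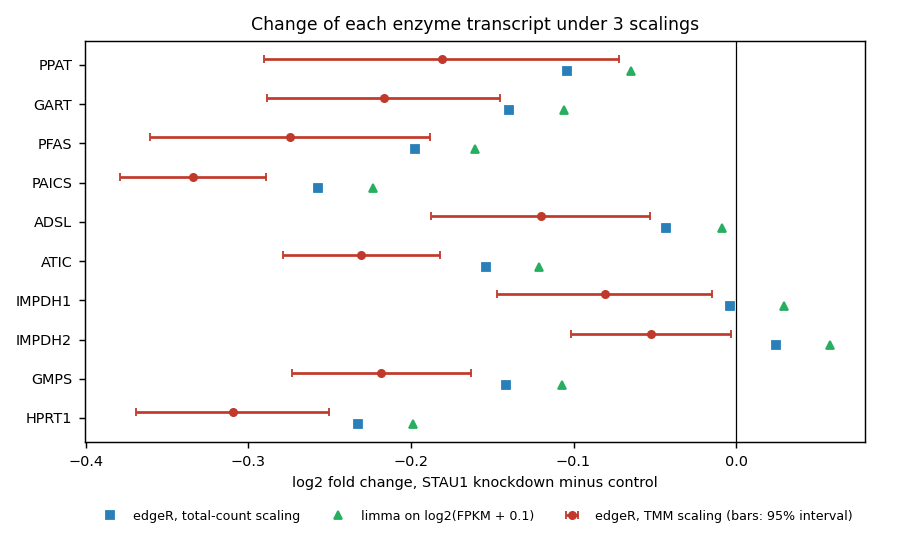
Log2 fold change (x axis, STAU1 knockdown minus control) of each enzyme transcript (y axis); circles are edgeR with TMM scaling with 95% intervals, squares edgeR with total-count scaling, triangles limma on log2(FPKM + 0.1). PAICS and HPRT1 lie farthest below 0 under all 3, and IMPDH2 changes side (-0.052, 0.025 and 0.058).

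On the deposited FPKM scale the members spanned a wide range, and their group means kept 1 order in both groups. Single libraries did not always keep it: in knockdown replicate 3 IMPDH2 had 26.28 FPKM and PAICS 26.14. Levels between genes also depend on the gene lengths behind the FPKM, which were not examined here. In knockdown replicate 1 ADSL had 5.27 FPKM from 2301 counts and IMPDH1 17.29 FPKM from 2285. In deposited FPKM (fragments scaled by gene length and library size) HPRT1 was highest, at 47.5 to 49.4 in knockdown and 55.0 to 56.7 in control, followed by ATIC at 34.99 to 37.8 in knockdown and 39.5 to 39.8 in control. PAICS had 25.3 to 26.1 FPKM in knockdown and 29.5 to 30.4 in control, and IMPDH2 had 25.2 to 26.3 in knockdown and 24.2 to 24.8 in control. PAICS and IMPDH2 therefore overlapped in the knockdown libraries and were apart in the control libraries. Next came IMPDH1 at 16.7 to 17.3 FPKM in knockdown and 16.3 to 17.03 in control, and GMPS at 9.78 to 10.4 in knockdown and 10.6 to 11.01 in control.

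The remaining members were lower. GART had 5.86 to 6.34 FPKM in knockdown and 6.56 to 6.76 in control, and ADSL had 4.94 to 5.27 in knockdown and 5.04 to 5.25 in control. PFAS had 4.36 to 4.59 FPKM in knockdown and 4.77 to 5.17 in control, so that it overlapped ADSL in control libraries and not in knockdown libraries. PPAT, the enzyme of the committed step, had the lowest FPKM, 3.67 to 3.85 in knockdown and 3.64 to 4.36 in control. The highest member mean was 12.9 times the lowest in knockdown and 14.1 times the lowest in control. On this scale the knockdown libraries lay wholly below control for 6 members and wholly above for 1, IMPDH2, and overlapped for 3. Over all tested genes with an FPKM value 12.6% lay wholly below and 38.5% wholly above.

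**Figure D3:**
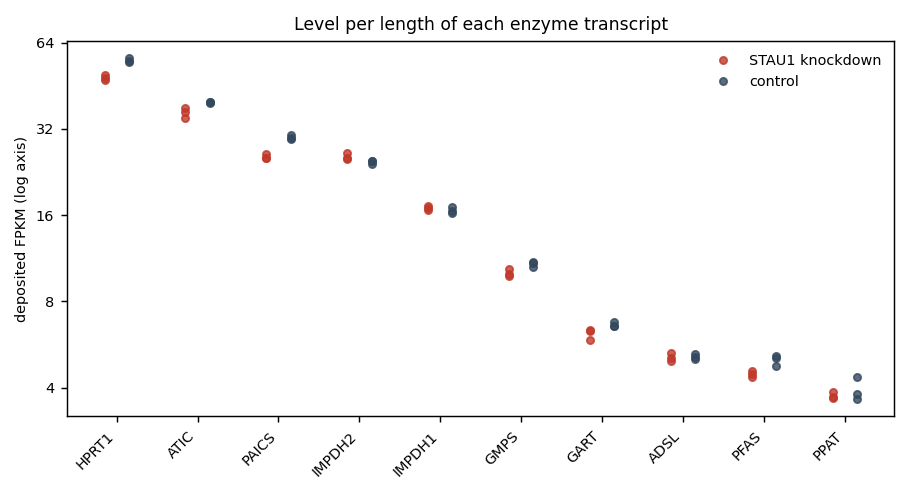
Deposited FPKM (y axis, log scale) of each enzyme transcript in the 3 STAU1 knockdown and 3 control libraries, in order of the knockdown mean; points are libraries. HPRT1 is at the top (47.5 to 49.4 in knockdown, 55.0 to 56.7 in control) and PPAT at the bottom, and PAICS and IMPDH2 meet in the knockdown libraries.

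Ratios of members within a library do not depend on the scaling between libraries, and 5 pairs were compared with a two-sided exact permutation test. With 3 libraries against 3 the smallest p this test can give is 0.1, so no pair could pass 0.05. GMPS relative to IMPDH2, the successive steps of the GMP branch, was at -0.597, -0.562 and -0.564 (log2 ratio of counts) in knockdown libraries, against -0.362, -0.453 and -0.410 in control libraries. The groups were apart, with a difference of -0.17 (exact permutation p = 0.1, adjusted 0.333 over the 5 pairs). The isozyme ratio IMPDH1 to IMPDH2 overlapped between groups, with -1.08 ± 0.044 in knockdown and -1.05 ± 0.023 in control (SD, n = 3 each, difference -0.028, exact permutation p = 0.4, adjusted 0.4). IMPDH2 made up 59.4% to 60.9% of the summed IMPDH FPKM in knockdown libraries and 59.3% to 60.04% in control libraries. This share depends on the gene lengths behind the FPKM.

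The head-to-head pair showed no separation. PAICS relative to PPAT was at 3.24, 3.26 and 3.23 in knockdown libraries, against 3.47, 3.50 and 3.23 in control libraries. Knockdown values were nearly equal, while control replicate 3, the library with the high PPAT value, lay just below them and apart from the other control libraries. The difference was -0.16 (exact permutation p = 0.4, adjusted 0.4) and became -0.24 without control replicate 3 and -0.11 without control replicate 2. HPRT1 relative to PPAT differed by -0.13 (1.94 ± 0.063 in knockdown, 2.07 ± 0.11 in control, SD, n = 3 each, exact permutation p = 0.2, adjusted 0.333), and IMPDH2 relative to ADSL by 0.068 (1.09 ± 0.056 in knockdown, 1.02 ± 0.032 in control, exact permutation p = 0.2, adjusted 0.333). Both overlapped between groups, and HPRT1 to PPAT was at -0.20 without control replicate 3 and -0.086 without control replicate 2.

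**Figure D4:**
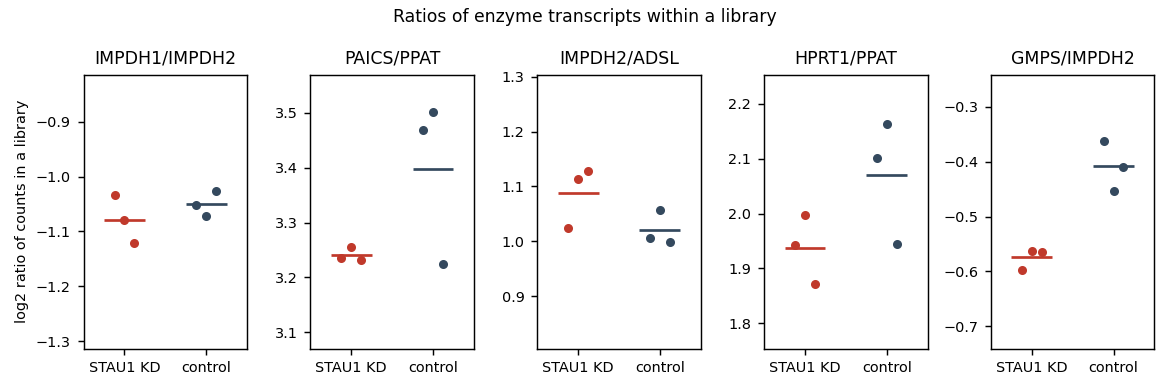
Log2 ratio of the counts of 2 members within a library (y axis, each panel spanning the same range) in STAU1 knockdown and control libraries; points are libraries and lines are means. GMPS to IMPDH2 is the pair whose groups do not meet, and in PAICS to PPAT 1 control library (3.23) lies at the knockdown level.

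Genes around these enzymes moved in both directions. Among 18 tested genes of PRPP supply, salvage and AMP/GMP interconversion 3 rose, 6 fell and 9 were not called (median log2 fold change -0.020). This leaning turned with the scaling: 8 rose and 4 fell with total counts (median 0.057), and 7 rose and 2 fell on each FPKM scale (medians 0.062 and 0.081). Calls over all tested genes shifted the same way, which bears on every list below. With total counts 5473 of 17089 rose and 2407 fell (median 0.076). On log2(FPKM + 1) 5276 of 17088 rose and 1552 fell (median 0.052), and on log2(FPKM + 0.1) 5262 rose and 1554 fell (median 0.096). With TMM 22.2% rose and 22.0% fell. GMPR2, a GMP reductase that returns GMP to IMP, had 59.6, 59.5 and 58.8 CPM in knockdown libraries, against 47.5, 47.0 and 46.8 CPM in control libraries, a log2 fold change of 0.33 (SE 0.036, adjusted p = 8.15e-11 from edgeR). PRPS2, which makes PRPP, had 49.0, 51.9 and 50.2 CPM in knockdown libraries, against 57.2, 61.05 and 60.3 CPM in control libraries, a log2 fold change of -0.24 (SE 0.037, adjusted p = 3.93e-07 from edgeR).

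Purine breakdown was represented by 10 tested genes, of which 5 fell and 2 rose, with 3 left uncalled and a median of -0.11. With total-count scaling 4 rose and 4 fell (median -0.031), and on each FPKM scale 3 rose and 3 fell (medians -0.0035 and -0.0031). NT5E, the ectoenzyme CD73 that makes adenosine from AMP, had 49.7, 50.1 and 56.0 CPM in knockdown libraries, against 35.3, 35.8 and 36.2 CPM in control libraries (log2 fold change 0.54, SE 0.043, adjusted p = 9.07e-15 from edgeR). NUDT1, which clears oxidized purine nucleotides, fell by 0.47 on the log2 scale (SE 0.049), and ADA, the adenosine deaminase gene, fell by 0.32 (SE 0.052).

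Of 14 tested genes of folate one-carbon, serine and glutamine metabolism 8 fell and 3 rose, with 3 left uncalled and a median of -0.14. With total-count scaling 6 fell and 4 rose (median -0.061), and on each FPKM scale 4 fell and 3 rose (medians -0.026 and -0.027). MTHFD2, a mitochondrial folate enzyme, had 75.4, 76.0 and 73.2 CPM in knockdown libraries, against 118, 116.2 and 119.5 CPM in control libraries, the largest change among the genes named by rule from these lists (log2 fold change -0.66, SE 0.029, adjusted p = 5.41e-24 from edgeR). The serine synthesis gene PSAT1 fell by 0.43 on the log2 scale (SE 0.03) and the folate enzyme gene SHMT1 by 0.31 (SE 0.028). GLUL, the glutamine synthetase gene, rose by 0.27 (SE 0.031).

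Of 13 tested genes of pyrimidine metabolism 8 fell and 1 rose, with 4 left uncalled. The median of these 13 was -0.098. With total-count scaling 5 fell and 2 rose (median -0.021), and on each FPKM scale 4 fell and 2 rose (medians 0.009 and 0.011). DHODH, the mitochondrial enzyme of the pyrimidine route, had a log2 fold change of -0.52 (SE 0.062). The CTP synthase gene CTPS1 had one of -0.28 (SE 0.03) and the dUTPase gene DUT one of -0.27 (SE 0.03), while the nucleotide kinase gene CMPK1 rose by 0.15 (SE 0.024). Among 10 transcription regulators tied to these enzymes 3 rose, 3 fell and 4 were not called (median 0.045). With total-count scaling and on each FPKM scale 5 rose and 2 fell (median 0.12 with total counts), and the TMM median was -0.021 without knockdown replicate 3 and -0.0079 without control replicate 3. ATF4, a stress-response activator, had 221.6, 228.7 and 239.8 CPM in knockdown libraries, against 279.7, 283.2 and 270 CPM in control libraries (log2 fold change -0.27, SE 0.025, adjusted p = 4.2e-12 from edgeR). RB1 fell by 0.41 on the log2 scale (SE 0.053) and MNT, a MYC antagonist, rose by 0.27 (SE 0.05). MYC, named here after its values were seen because of the E-box, had 57.1, 57.9 and 60.1 CPM in knockdown libraries, against 53.5, 56.8 and 53.0 CPM in control libraries (log2 fold change 0.10, SE 0.037, adjusted p = 0.0197 from edgeR).

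**Figure D5:**
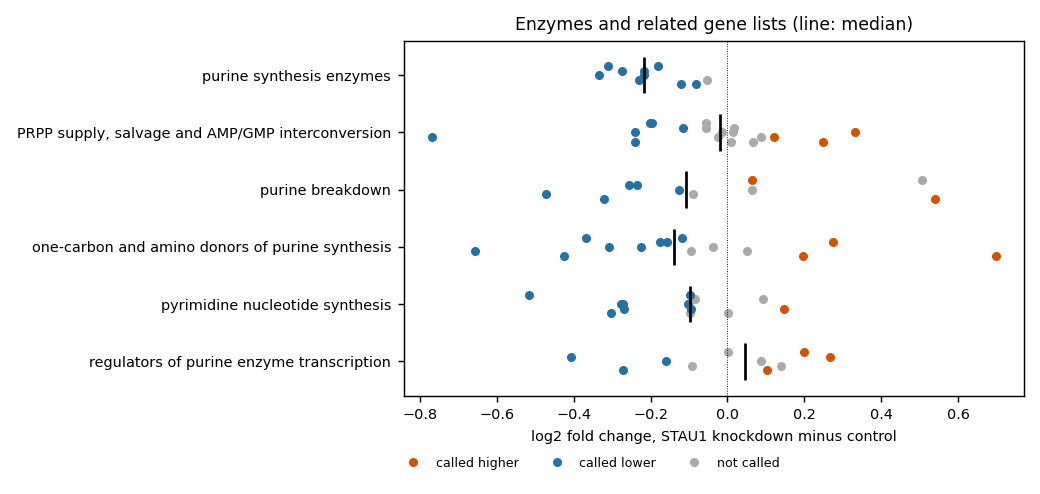
Log2 fold change (x axis, STAU1 knockdown minus control, edgeR with TMM scaling) of each tested gene in the purine synthesis enzymes and the related lists (y axis); black lines are medians and colours show the call. The enzymes' median is -0.22, and with this scaling the medians of the other lists lie between -0.14 and 0.045.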

How the data were processed

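The authors deposited whole-number read counts per gene and FPKM values rounded to 2 decimals, for 6 libraries. Per the labels' protocols, RNA was extracted with TRIzol, treated with DNase, captured on mRNA beads and made into directional libraries, read as pairs of 150 nt. HISAT2, DESeq2 and GRCh38 are named in the submitters' processing notes without a role. The sources used here do not give the counter, annotation or strand setting, so overlapping genes may share reads. Of the members' pseudogenes 7 were listed, with at most 21 counts in a library. The deposited FPKM divisor of knockdown replicates 1 to 3 was 0.95, 0.961 and 1.05 times that of control replicate 1, and the TMM-scaled total 1.01, 1.03 and 1.17 times.

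Counts of genes kept by filterByExpr (minimum count 10, 17089 genes) were TMM-scaled and tested by edgeR 4.0.16 (glmQLFit, robust; R 4.3.3, limma 3.58.1), with a call at an adjusted p under 0.05. Standard errors are the log2 fold change over the root of F. On simulated counts for 17089 genes, with 16686 of the tested genes left unchanged, this test recovered 64% of genes changed by 0.25 on the log2 scale and 82% by 1. Far fewer genes changed there than were called in these data, so the rates need not apply here. Replicate pairs gave a chi-square per degree of freedom of 1.78 to 2.88, more spread than counting alone gives. Each library was counted once, though this check cannot show whether replicates were grown separately. GENCODE 29 gave coordinates and RefSeq the promoter windows.

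Alternatives were RLE, total-count scaling, 2 other filters, DESeq2 1.42.0, limma-voom, limma on FPKM, the replicate number as a block, and each library left out. Members and lists were chosen with earlier results of these data known. Named were the members, STAU1 and, per related list, the 3 genes with the smallest adjusted p plus the leading called gene of the other direction where those 3 moved one way. One gene that this rule names is not reported here.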

Additional observations from a re-analysis of the deposited data

How the results depend on the processing

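Of 150 values of single members under 15 alternatives, 129 kept their direction and side of the threshold. A further 16 kept their direction but lost the call, and 5 changed sign. The sign changes were IMPDH1 at 0.0279 and 0.0294 on log2(FPKM + 1) and log2(FPKM + 0.1), where its call was lost too. The others were IMPDH2 at 0.0247 with total-count scaling and 0.0555 and 0.0575 on the FPKM scales. Members called lower numbered 9 with TMM, 5 on each FPKM scale, 6 with total-count scaling, 8 with DESeq2 and 8 with no filter, and 7 to 9 with 1 library left out, with 0 called higher in any of these. Over all genes, calls lower numbered 3759 with TMM, 2407 with total-count scaling, and 1552 and 1554 on the FPKM scales. They numbered 3051 of 17089 with DESeq2 and 3574 of 30493 with no filter. With 1 library left out, calls lower ran between 3370 and 3631 and all calls between 6779 and 7106. Total-count scaling changes only the divisor of each library, while the FPKM settings also change the test and the scale of the values. The cause of the smaller counts was not tested. The ratios within a library kept their sign under all 7 of their alternatives, between -0.24 and -0.11 for PAICS to PPAT and -0.19 and -0.14 for GMPS to IMPDH2 with 1 library left out.

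With the replicate number as a block 9 members and 7665 genes were called. Same-numbered libraries had deviations correlated at 0.066, 0.023 and 0.155. Knockdown replicate 3 correlated best with control replicate 3 (0.155, against -0.084 and -0.077 with the other controls). Knockdown replicate 1 correlated almost equally with control replicates 1 and 2 (0.066 and 0.065), and knockdown replicate 2 best with control replicate 1 (0.031). Whether same-numbered libraries belong together was not tested. Every member had at least 728 counts in every library.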

Other observations

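PRTFDC1, a paralog of HPRT1 that is known to have little salvage activity of its own, moved the other way. It had 26.1, 26.5 and 27.6 CPM in knockdown libraries, against 18.9, 17.4 and 18.7 CPM in control libraries (log2 fold change 0.54, SE 0.053, adjusted p = 4.38e-12 from edgeR). The gene was picked after its values were seen, and so was GMPR below. The 2 GMP reductase genes also differed in direction: GMPR, at 0.66 ± 0.10 CPM in knockdown and 1.13 ± 0.27 CPM in control (SD, n = 3 each), fell by 0.77 on the log2 scale (SE 0.27, adjusted p = 0.0157 from edgeR), while GMPR2 rose by 0.33. GMPR had few counts, 17, 22 and 27 in knockdown libraries against 39, 25 and 42 in control libraries. Neither GMPR nor PRTFDC1 was followed under the alternatives. The difference between the changes of GMPR and GMPR2 was not tested.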
